A study of Arabidopsis thaliana with 18 samples.

Results

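Rosettes of 2 natural accessions of Arabidopsis thaliana were compared after the same ozone exposure. The libraries were 3 from Cvi-0 plants and 3 from Col-0 plants, each sampled after 2 h at 350 ppb ozone, so that 6 of the 18 libraries of the series entered the comparison. Cvi-0, collected on the Cape Verde Islands, is the ozone-sensitive parent of the study. Col-0 is the standard laboratory accession and the source of the TAIR10 genome to which the reads of every library were assigned. Each library was made from total RNA of 10 to 15 pooled whole rosettes, 3 weeks old, and the labels name no transgene or mutation in either accession. The 3 Cvi-0 and 3 Col-0 control libraries, which received no ozone, showed which differences were already there without it. The near-isogenic line Col-S, which carries ozone sensitivity from Cvi-0 in a Col-0 background, entered the fit and is mentioned for its values in a few genes.

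Ozone enters leaves through open stomata and breaks down in the cell wall space into reactive oxygen species, which start an oxidative burst like that of plants under pathogen attack. Calcium channels, MAP kinases and the hormones ethylene, salicylic acid, jasmonate and abscisic acid then shape how far cell death spreads. In sensitive plants ethylene and salicylic acid are known to favour lesions, jasmonate to contain them, and abscisic acid to close the stomata.

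Total counts ranged from 14905841 to 18339372 in the Cvi-0 ozone libraries and from 19011751 to 25789925 in the Col-0 ozone libraries, so that a floor of 3 counts was 0.164 to 0.201 CPM in Cvi-0 and 0.116 to 0.158 CPM in Col-0. CPM is the count per 1000000 counts of a library after scaling with TMM factors, and such floors cover counting error only. The main axis of a principal component analysis of these 6 libraries held 85.3% of the variance and separated the accessions. Col-0 ozone replicate 2 stood apart on the next axis, which held 5.12%, at -39.18 against 14.45 and 26.84 for the other Col-0 ozone libraries. The 5 leaf markers summed to 16005 to 19533 CPM in Cvi-0 ozone and 28664 to 38047 CPM in Col-0 ozone libraries. The 14 root markers summed to 90.7 to 97 CPM in Cvi-0 ozone and 79.1 to 94 CPM in Col-0 ozone, with 6 or 7 members at 0 in a Cvi-0 library and 5 in a Col-0 library, and the 20 flower, pollen and seed markers summed to 2.53 to 3.1 CPM and 1.96 to 3.27 CPM, with 10 or 11 members and 7 to 11 members at 0. Most of the root sum came from PYK10 (41.9 to 61.2 CPM), SCR (14.5 to 23.3 CPM) and PHO1 (17 to 32.4 CPM). No other root marker exceeded 3.1 CPM in these ozone libraries.

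After ozone, the transcriptomes of the accessions differed at about the same number of genes in each direction, and the larger differences were more often upward in Cvi-0. Of 32678 listed genes, 20622 passed the filter on low counts. A gene is said to be called where the adjusted p of edgeR's quasi-likelihood test was under 0.05. In Cvi-0 ozone rosettes 5065 genes (24.6%) were called higher and 5034 (24.4%) lower than in Col-0 ozone rosettes, 10099 in all (49.0%). At least 2-fold differences were called for 2473 genes (12.0%) higher and 1757 genes (8.52%) lower in Cvi-0. The 3 Cvi-0 and the 3 Col-0 values did not overlap for 11388 genes (55.2%). The 5 chromosomes were alike in this, with 24% to 25.1% of their tested genes higher and 24.1% to 25.7% lower.

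The same accessions also differed without ozone, but at fewer genes. In Cvi-0 controls 2515 genes (12.2%) were called higher and 2424 (11.8%) lower than in Col-0 controls, of which 1086 (5.27%) and 1210 (5.87%) were at least 2-fold. Of the 5065 genes higher in Cvi-0 after ozone, 1408 (27.8%) were also higher in Cvi-0 controls, 192 were lower there and 3465 (68.4%) were not called in controls. Of the 5034 genes lower in Cvi-0 after ozone, 1617 (32.1%) were lower in controls, 136 were higher and 3281 (65.2%) were not called. A difference missing its threshold in controls is not thereby shown to have changed, so the change was tested as an interaction, the log2 difference after ozone minus that in controls. It was called more positive after ozone for 2288 genes (11.1%) and more negative for 2115 genes (10.3%), at least 2-fold for 1411 (6.84%) and 781 (3.79%). Across the 20622 genes, the ozone and control differences, which share no library, had a Pearson r of 0.73 and a Spearman rho of 0.42. Genes are not independent replicates, and these coefficients are descriptions.

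**Figure D1:**
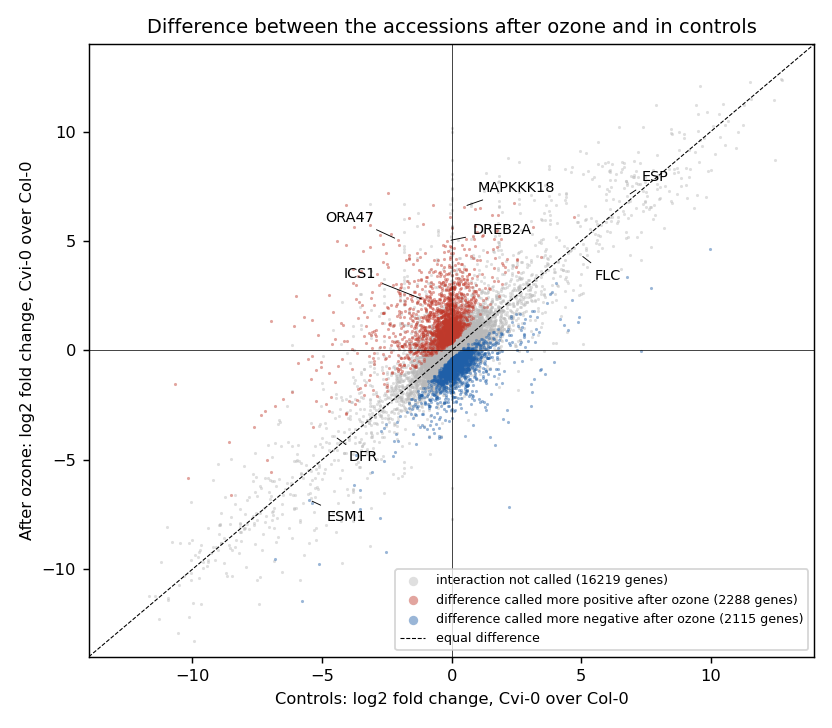
Log2 fold change of Cvi-0 over Col-0 in controls (horizontal axis) and after ozone (vertical axis) for the 20622 tested genes. Points on the dashed line differed equally with and without ozone, such as ESP at 7.06 after ozone and 6.77 in controls. Red and blue points (2288 and 2115 genes) are those whose difference was called more positive or more negative after ozone.

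The genes that stood highest in Cvi-0 rosettes only once ozone was given included regulators of abscisic acid and drought responses. By a rule on called genes with an interaction call and a control difference under 0.5 on the log2 scale, the 6 highest were MAPKKK18, LYK2, PP2-B11, DREB2A, AT1G74400 and AT1G06980. MAPKKK18, a MAP kinase kinase kinase of abscisic acid signalling, had 35.4, 48.8 and 52.9 CPM in Cvi-0 ozone libraries, against 0.393, 0.491 and 0.542 CPM in Col-0 ozone libraries. Its log2 fold change was 6.57 (SE 0.55, edgeR adjusted p = 6.6e-08), and the controls lay between 0.446 and 0.837 CPM in Cvi-0 and between 0.409 and 0.619 CPM in Col-0. The gene was thus near its control level in every Col-0 ozone library and far above it in every Cvi-0 ozone library.

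DREB2A, a transcription factor that activates drought and heat genes, had 211, 172 and 318 CPM in Cvi-0 ozone libraries, against 8.3, 6.88 and 6.67 CPM in Col-0 ozone libraries. Its log2 fold change was 5.0 (SE 0.44, adjusted p = 1.1e-07), and in controls it was -0.16 (adjusted p = 0.907). PP2-B11, a phloem protein of the PP2 family, had 90.2, 85.7 and 145 CPM in Cvi-0 ozone and 2.11, 1.97 and 2.55 CPM in Col-0 ozone libraries. LYK2, a receptor-like kinase with LysM domains, had 64.9, 38.3 and 87.9 CPM against 0.834, 0.573 and 1.41 CPM, but it overlaps AT3G01830 in the annotation and the 2 genes may share reads. None of these genes had a Cvi-0 value near a Col-0 value. AT1G74400, a tetratricopeptide repeat protein, and AT1G06980 were lower in level, at 4.51 to 17.2 CPM and 4.79 to 6.62 CPM in Cvi-0 ozone, and at 0.163 to 0.491 CPM and 0.0982 to 0.434 CPM in Col-0 ozone. AT1G06980 was at 1.53 to 4.33 CPM in Cvi-0 controls and 1.65 to 4.3 CPM in Col-0 controls, so that its Col-0 ozone libraries were the low ones. The Col-S ozone libraries lay between the Cvi-0 and Col-0 ozone libraries in every replicate for 4 of these 6 genes, for example at 15.3, 4.38 and 28.8 CPM for MAPKKK18 and at 14.2, 8.56 and 29.4 CPM for PP2-B11. DREB2A had 123, 55 and 283 CPM in Col-S and LYK2 had 11 to 50.1 CPM, and both overlapped Cvi-0.

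The 6 lowest by the same rule were NAC048, CYP706A6, AT1G73325, FRO7, SQP1 and AT2G03980. FRO7, the ferric reductase of the chloroplast envelope, had 6.21, 5 and 4.89 CPM in Cvi-0 ozone libraries, against 33.1, 125 and 28.9 CPM in Col-0 ozone libraries. Its log2 fold change was -3.53 (SE 0.60, adjusted p = 1.3e-04), and control means were 210 CPM in Cvi-0 and 292 CPM in Col-0, above all ozone libraries of either accession. CYP706A6, a cytochrome P450, was at 1.03 to 2.65 CPM in Cvi-0 ozone and at 13.3 to 55.2 CPM in Col-0 ozone, and SQP1, a squalene monooxygenase homologue, at 3.36 to 5.42 CPM and 14.6 to 80.5 CPM. Col-0 ozone replicate 2 was the highest library for FRO7, CYP706A6, SQP1 and AT1G73325. The interaction was not called without that library for AT1G73325 (-2.47, adjusted p = 0.105) or SQP1 (-1.79, adjusted p = 0.115), nor for AT1G73325 without any Cvi-0 ozone library (adjusted p = 0.0589 to 0.0729) or SQP1 without Cvi-0 ozone replicate 1 or 3 (adjusted p = 0.066 and 0.0583). AT2G03980, a GDSL lipase, was the steadiest, at 2.11, 2.23 and 1.86 CPM in Cvi-0 ozone against 15.9, 20.5 and 18.7 CPM in Col-0 ozone, at -3.14 on the log2 scale (SE 0.14, adjusted p = 2.9e-11). Its control difference was small but also called lower (-0.48, adjusted p = 0.00596). NAC048, a NAC transcription factor, had 0.241 to 0.684 CPM in Cvi-0 ozone and 6.22 to 11.2 CPM in Col-0 ozone.

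Producers of reactive oxygen and the regulators that respond to it were higher in Cvi-0 rosettes after ozone. Of 20 members tested, 13 were higher and 1 lower, against 24.6% and 24.4% of all tested genes, and their median log2 fold change was 1.19, against -0.01 over all tested genes and -0.14 for the same members in controls. RBOHF, an NADPH oxidase of the plasma membrane that makes superoxide, had 249, 312 and 359 CPM in Cvi-0 ozone libraries, against 22.3, 29.2 and 30.8 CPM in Col-0 ozone libraries. The log2 fold change of RBOHF was 3.48 (SE 0.17, adjusted p = 5.7e-11), against 0.66 in controls (adjusted p = 0.00519), and its interaction was called (adjusted p = 7.2e-07). Col-0 ozone libraries were close to the control means of 29.6 CPM in Cvi-0 and 18.7 CPM in Col-0. RBOHD, the oxidase of the pathogen-triggered burst, which was named after its values were seen, was at 746 to 785 CPM in Cvi-0 ozone and 351 to 373 CPM in Col-0 ozone (log2 fold change 1.08, SE 0.12, adjusted p = 2.4e-06).

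Zinc finger repressors of the same group were also higher. ZAT7 had 348, 370 and 362 CPM in Cvi-0 ozone libraries, against 26.9, 16.5 and 26.6 CPM in Col-0 ozone libraries (log2 fold change 3.95, SE 0.35, adjusted p = 1.3e-07), although in controls it was lower in Cvi-0 (-1.49, adjusted p = 0.0221). ZAT12, named like the genes in the rest of this paragraph after its values were seen, had 1016, 1044 and 1069 CPM in Cvi-0 ozone, against 180, 122 and 251 CPM in Col-0 ozone. OXI1, a kinase activated by hydrogen peroxide, was higher by 2.43 on the log2 scale (SE 0.32, adjusted p = 8.8e-06). RRTF1, an ethylene response factor induced by redox changes, had 50, 39.4 and 69.9 CPM in Cvi-0 ozone and 0.295, 0.491 and 0.759 CPM in Col-0 ozone, and it overlaps AT4G34412. SRO5, a relative of RCD1, was at 24.6 to 30.5 CPM in Cvi-0 ozone and 1.15 to 1.79 CPM in Col-0 ozone, and it overlaps AT5G62530. AOX1A, the alternative oxidase of mitochondria, was higher in Cvi-0 both after ozone (1.29, SE 0.18, adjusted p = 2.3e-05) and in controls (1.08, adjusted p = 3.4e-04), with no interaction call (adjusted p = 0.61).

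**Figure D2:**
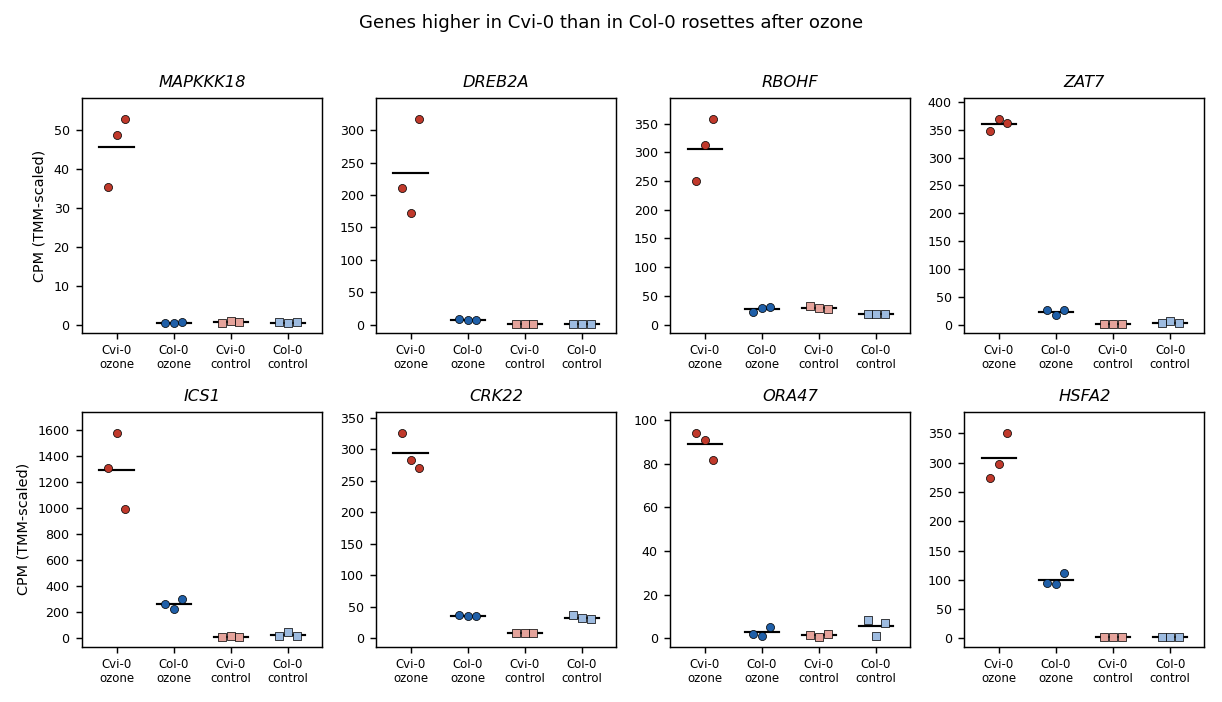
TMM-scaled CPM of 8 genes in each library of Cvi-0 ozone, Col-0 ozone, Cvi-0 control and Col-0 control rosettes, with a bar at each mean and an axis of its own per gene. For every gene the 3 Cvi-0 ozone libraries lie above all others. ICS1, ZAT7, CRK22 and ORA47 were called lower in Cvi-0 than in Col-0 controls, where the values of ORA47 overlapped.

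Salicylic acid genes were called higher in Cvi-0 more often than lower after ozone, and lower more often than higher in controls. Of 25 members tested, 9 were higher, 2 lower and 14 not called after ozone (24.6% of all genes higher and 24.4% lower), with a median of 0.45. In controls none was higher and 9 were lower (12.2% and 11.8% of all genes), and the median was -0.69. The interaction was called for 14 members, each more positive after ozone (11.1% of all genes). The lower count was 1 without replicate 2 or 3 of Cvi-0 ozone or replicate 3 of Col-0 ozone, and 0 without Col-0 ozone replicate 2. ICS1, the isochorismate synthase that makes most of the salicylic acid of stressed leaves, had 1311, 1579 and 992 CPM in Cvi-0 ozone libraries, against 264, 226 and 298 CPM in Col-0 ozone libraries. Its log2 fold change was 2.30 (SE 0.26, adjusted p = 1.9e-06) after ozone and -1.05 (adjusted p = 0.00651) in controls. EDS5, the transporter that exports its product from the chloroplast, followed the same pattern at 2.13 (SE 0.37, adjusted p = 1.6e-04) after ozone and -1.78 (adjusted p = 0.00534) in controls. It overlaps AT4G39040 and was named after its values were seen.

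The lipase-like proteins that relay immune receptor signals were higher together. SAG101 had 351, 344 and 408 CPM in Cvi-0 ozone and 92.4, 65.8 and 105 CPM in Col-0 ozone libraries (log2 fold change 2.07, SE 0.22, adjusted p = 1.1e-06). PAD4 (1.77, SE 0.21, adjusted p = 4.3e-06) and EDS1 (1.12, SE 0.19, adjusted p = 1.3e-04) were higher, and no Cvi-0 value of these genes overlapped a Col-0 value. SARD1, a transcription factor of ICS1, was higher by 1.71 on the log2 scale (SE 0.39, adjusted p = 0.00168), and PBS3, which conjugates isochorismate to glutamate, by 1.31 (SE 0.36, adjusted p = 0.00653). Among pathogenesis-related genes PR5 was called higher (1.72, SE 0.50, adjusted p = 0.00883). PR2 had 457, 632 and 629 CPM in Cvi-0 ozone, against 44.6, 167 and 285 CPM in Col-0 ozone, and was not called (1.79, SE 0.78, adjusted p = 0.066), but was called without Col-0 ozone replicate 3 (2.44, adjusted p = 0.0367), with the replicate number as a block (2.12, adjusted p = 0.00286) and with only the libraries compared in the fit (1.78, adjusted p = 0.0168). PR1 had 7.52, 7.94 and 13 CPM in Cvi-0 ozone, against 0.0982, 88.2 and 104 CPM in Col-0 ozone, so that 1 Col-0 library lay below all Cvi-0 libraries. It was not called (-2.76, SE 1.29, adjusted p = 0.0877), but was called without Col-0 ozone replicate 1 (-3.35, adjusted p = 0.0188). In this paragraph the genes other than SAG101 and PAD4 were named after their values were seen.

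Jasmonate genes were higher in Cvi-0 after ozone at 17 of 30 members tested and lower at 8 (24.6% and 24.4% of all genes), so that their lower share was near that of all genes. The median was 0.81 after ozone and 0.19 in controls. Along the synthesis pathway LOX3 had 266, 248 and 320 CPM in Cvi-0 ozone and 55, 71.8 and 95.3 CPM in Col-0 ozone libraries (log2 fold change 1.91, SE 0.27, adjusted p = 1.9e-05). OPR3, the reductase of the peroxisome, was higher by 1.81 on the log2 scale (SE 0.29, adjusted p = 6.1e-05). The 4 allene oxide cyclases did not move together. AOC3 was higher (2.06, SE 0.35, adjusted p = 1.2e-04), while AOC1 (-1.87, SE 0.31, adjusted p = 1.1e-04) and AOC4 (-1.70, SE 0.13, adjusted p = 1.7e-08) were lower. JMT, which makes the volatile methyl ester, was lower at 4.1, 8.43 and 6.82 CPM in Cvi-0 ozone, against 17.3, 26.4 and 27 CPM in Col-0 ozone.

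MYC2, the central activator of jasmonate signalling, had 239, 251 and 196 CPM in Cvi-0 ozone and 69.5, 72.8 and 88.6 CPM in Col-0 ozone libraries (log2 fold change 1.57, SE 0.13, adjusted p = 7.3e-08). JAZ1, JAZ2, JAZ5, JAZ7 and JAZ10, the repressors that jasmonate removes and then induces, had log2 fold changes of 1.43 to 2.57, each called. CYP94C1, which oxidises the active hormone, was higher by 2.52 on the log2 scale (SE 0.34, adjusted p = 1.3e-05). The defensin PDF1.2, a joint target of ethylene and jasmonate, was at 0.689 to 0.903 CPM in Cvi-0 ozone and 10.9 to 14.3 CPM in Col-0 ozone (log2 fold change -3.96, SE 0.69, adjusted p = 1.6e-04). The storage proteins differed in opposite directions, each the same way after ozone and in controls. VSP1 was at 1.81 (adjusted p = 5.7e-05) after ozone and 3.09 (adjusted p = 4.0e-07) in controls, and VSP2 was at -4.2 (adjusted p = 1.3e-06) after ozone and -3.53 (adjusted p = 5.0e-06) in controls. All genes of the jasmonate paragraphs other than MYC2, VSP2 and AOC4 were named after their values were seen.

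In ethylene signalling, 11 of 28 members were higher and 8 lower in Cvi-0 after ozone (24.6% and 24.4% of all genes), with a median of 0.12, and the lower share was near that of all genes. ACC synthases, the enzymes that set the rate of ethylene synthesis, were among the higher ones. ACS7 had 7.41, 7.76 and 14.2 CPM in Cvi-0 ozone and 0.638, 1.11 and 0.868 CPM in Col-0 ozone libraries (log2 fold change 3.46, SE 0.32, adjusted p = 1.7e-07). ACS2 had 41.8, 36.8 and 44.1 CPM, against 3.49, 6.72 and 11 CPM (2.54, SE 0.38, adjusted p = 3.5e-05). ACO4, an abundant ACC oxidase that makes the hormone itself, did not differ beyond its error, at 1500 to 2069 CPM in Cvi-0 ozone and 1585 to 2316 CPM in Col-0 ozone (-0.18, SE 0.16, adjusted p = 0.364). ERS1, an ethylene receptor and thus a negative regulator, was lower in Cvi-0 after ozone (-1.41, SE 0.17, adjusted p = 4.9e-06) and in controls (-1.56, adjusted p = 5.2e-06). EBF1, the F-box protein that removes EIN3, was higher (0.87, SE 0.12, adjusted p = 1.6e-05), as was EIN3 (0.50, SE 0.11, adjusted p = 0.00126). ORA59 (-1.35, SE 0.23, adjusted p = 1.3e-04) and ERF1 (-1.05, SE 0.25, adjusted p = 0.00209), which join ethylene to jasmonate upstream of PDF1.2, were lower. ACS2, ACO4, EIN3, ORA59 and ERF1 were named after their values were seen.

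The group of calcium, MAP kinase and pattern signalling had 24 of 41 members higher and 6 lower in Cvi-0 after ozone. Over all tested genes 24.6% were higher and 24.4% lower. The median of the group was 0.37, and its control median was -0.12. The lower count was 3 without Cvi-0 ozone replicate 1. CNGC19, a cyclic nucleotide-gated calcium channel of defence, had 128, 128 and 99.3 CPM in Cvi-0 ozone and 7.71, 12.7 and 9.98 CPM in Col-0 ozone libraries (log2 fold change 3.54, SE 0.33, adjusted p = 2.4e-07). The touch gene TCH4, a xyloglucan-modifying enzyme, had 436, 456 and 397 CPM in Cvi-0 ozone, against 41.5, 50.8 and 59.9 CPM in Col-0 ozone (3.08, SE 0.27, adjusted p = 9.2e-08). PROPEP1, the precursor of a danger peptide, had 14.4 to 22.8 CPM in Cvi-0 ozone, against 1.67 to 2.71 CPM in Col-0 ozone (2.99, SE 0.30, adjusted p = 6.2e-07), and PROPEP2 and PROPEP3 were higher by 2.31 and 1.48 on the log2 scale, each called. For all of these the groups were well apart. CNGC12 (-2.24, SE 0.27, adjusted p = 3.6e-06) and CNGC2 (-1.04, SE 0.19, adjusted p = 2.8e-04), other channels of the same family, were lower. MPK11 (1.69, adjusted p = 3.1e-04), MEKK1 (0.74, adjusted p = 6.8e-05) and MPK6 (0.53, adjusted p = 4.3e-04), kinases of the immune MAP kinase cascades, were higher, and MKK9 was lower (-1.89, adjusted p = 2.5e-04). MPK6 overlaps AT2G43795, and CNGC12, CNGC2, PROPEP2, PROPEP3, MPK11, MEKK1, MPK6 and MKK9 were named after their values were seen.

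The cysteine-rich receptor-like kinases, cell surface proteins many of which respond to oxidative stress, went both ways. Of 29 tested, 5 were higher and 12 lower (24.6% and 24.4% of all genes), with a median of -0.19. The higher count was 3 without Cvi-0 ozone replicate 1. CRK22 had 327, 283 and 271 CPM in Cvi-0 ozone and 37, 35.5 and 35.6 CPM in Col-0 ozone libraries (log2 fold change 3.03, SE 0.11, adjusted p = 1.2e-12), while in controls it was lower in Cvi-0 (-1.97, adjusted p = 3.5e-10). CRK13, named after its values were seen, was more abundant, at 1336, 1241 and 1137 CPM in Cvi-0 ozone, against 178, 119 and 199 CPM in Col-0 ozone, and it too was lower in Cvi-0 controls (-1.96, adjusted p = 1.3e-04). CRK14 was lower in both conditions, with 0.969, 1.2 and 1.1 CPM in Cvi-0 ozone, against 71.6, 107 and 99.4 CPM in Col-0 ozone (-6.40, SE 0.43, adjusted p = 3.6e-09), and -3.55 in controls (adjusted p = 6.5e-05). CRK41 was lower both after ozone (-3.50, adjusted p = 9.5e-09) and in controls (-5.35, adjusted p = 9.5e-09). CRK genes on chromosome 4 lie in a cluster of similar sequences, and how reads that fit several of them were counted is not given in the sources used here, so values of single members are uncertain.

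Of the 36 WRKY transcription factors tested, 15 were higher and 4 lower in Cvi-0 after ozone (24.6% and 24.4% of all genes). Their median was 0.41, and their control median was -0.16. WRKY22, which acts in pattern-triggered immunity and senescence, had 121, 110 and 132 CPM in Cvi-0 ozone and 10.4, 6.1 and 6.94 CPM in Col-0 ozone libraries (log2 fold change 3.95, SE 0.36, adjusted p = 1.5e-07). WRKY55 had 88.5 to 108 CPM, against 5.94 to 10.8 CPM (3.56, SE 0.32, adjusted p = 1.2e-07). WRKY46, named after its values were seen, had 1003, 1070 and 1015 CPM, against 291, 214 and 416 CPM (1.75, SE 0.36, adjusted p = 7.2e-04). WRKY33 (0.27, SE 0.23, adjusted p = 0.362) and WRKY40 (0.28, SE 0.25, adjusted p = 0.378), abundant early members also named after their values were seen, were not called, and both overlap a neighbouring gene. Their values, 897 to 985 CPM in Cvi-0 ozone and 657 to 913 CPM in Col-0 ozone for WRKY33, overlapped.

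Heat shock factors and chaperones were higher in Cvi-0 after ozone. Of 27 tested, 19 were higher and none lower (24.6% and 24.4% of all genes), with a median of 0.88 and a control median of 0.05. HSFA2, the heat shock factor that sustains the response, had 274, 299 and 351 CPM in Cvi-0 ozone and 95, 92.5 and 112 CPM in Col-0 ozone libraries (log2 fold change 1.63, SE 0.15, adjusted p = 2.6e-07). HSFA1E, of the class that starts the response, had 12, 9.93 and 17 CPM, against 1.77, 2.21 and 2.17 CPM (2.65, SE 0.24, adjusted p = 1.9e-07). HSFB2B, a repressor of the same family that overlaps AT4G11670, was higher by 1.21 (SE 0.12, adjusted p = 7.0e-07). Small heat shock proteins, which bind unfolding proteins, had the largest differences of the group. HSP17.6II had 37.4, 59.2 and 94.7 CPM in Cvi-0 ozone and 2.21, 4.79 and 3.96 CPM in Col-0 ozone, and HSP17.4, which overlaps AT3G46220, had 16.1 to 42.7 CPM, against 0.736 to 1.52 CPM. HSP101, the disaggregase needed for acquired heat tolerance, which overlaps AT1G74300, was higher by 2.00 (SE 0.24, adjusted p = 3.1e-06), and these 3 chaperones were named after their values were seen. Cvi-0 ozone replicate 3 was the highest library for HSFA2, HSFA1E and these 3 chaperones.

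The endoplasmic reticulum stress group had 6 of 20 members higher and 2 lower (24.6% and 24.4% of all genes), with a median of 0.30. Its higher share was near that of all genes. Its lower count was 1 without replicate 2 or 3 of Cvi-0 ozone or replicate 3 of Col-0 ozone. The transcription factors of the unfolded protein response were among the higher members. bZIP28 had 192, 188 and 264 CPM in Cvi-0 ozone and 75.3, 63.5 and 75.7 CPM in Col-0 ozone libraries (log2 fold change 1.59, SE 0.16, adjusted p = 6.0e-07), NAC062 was higher by 1.24 (SE 0.16, adjusted p = 9.3e-06) and bZIP60 by 1.17 (SE 0.17, adjusted p = 2.2e-05).

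Among abscisic acid genes 10 of 33 were higher and 6 lower in Cvi-0 after ozone, shares near those of all genes (24.6% and 24.4%), with a median of 0.26. NCED3, the enzyme that limits abscisic acid synthesis under drought, had 53.3, 61.9 and 52.8 CPM in Cvi-0 ozone and 5.89, 8.03 and 5.59 CPM in Col-0 ozone libraries (log2 fold change 3.10, SE 0.42, adjusted p = 1.3e-05). The protein phosphatases that abscisic acid induces and that restrain its signal were higher as well, HAI1 by 3.06 (SE 0.42, adjusted p = 1.4e-05), HAI2 by 3.35 (SE 0.57, adjusted p = 1.2e-04), PP2CA by 1.74 (SE 0.25, adjusted p = 2.1e-05) and ABI1 by 0.81 (SE 0.19, adjusted p = 0.00238). The cold and dehydration proteins COR15A (-2.47, SE 0.31, adjusted p = 6.1e-06) and RAB18 (-1.36, SE 0.29, adjusted p = 8.6e-04), which abscisic acid also induces, were lower. HAI2, PP2CA, ABI1 and RAB18 were named after their values were seen.

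MPK12, the guard cell MAP kinase whose Cvi-0 allele is known to alter stomatal behaviour, did not differ in messenger level beyond its error. It had 16.2, 13.7 and 17.3 CPM in Cvi-0 ozone and 14.4, 15.5 and 13.7 CPM in Col-0 ozone libraries, which overlapped, at 0.11 on the log2 scale (SE 0.12, adjusted p = 0.463) after ozone and 0.07 (adjusted p = 0.744) in controls. Of the 26 genes of guard cell closure, 2 were higher and 12 lower (24.6% and 24.4% of all genes), with a median of -0.29. Carbonic anhydrase CA1 had 2051, 2191 and 1907 CPM in Cvi-0 ozone and 3825, 4140 and 3100 CPM in Col-0 ozone (-0.85, SE 0.14, adjusted p = 8.4e-05). The blue light receptors PHOT2 (-0.87, SE 0.16, adjusted p = 2.9e-04), which overlaps AT5G58150, and PHOT1 (-0.73, SE 0.20, adjusted p = 0.00673) were lower, as was the potassium efflux channel GORK (-0.65, SE 0.19, adjusted p = 0.00949). The kinase OST1 was called lower (-0.57, SE 0.18, adjusted p = 0.0151), but not without Cvi-0 ozone replicate 3 (-0.41, adjusted p = 0.0663). The potassium uptake channel KAT2 was higher (1.03, SE 0.18, adjusted p = 1.4e-04), and PHOT1, GORK and OST1 were named after their values were seen.

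Genes of senescence and cell death were higher more often than lower, with 11 of 29 higher and 1 lower (24.6% and 24.4% of all genes). Their median was 0.29. The lower member was ACD6, an ankyrin protein that promotes salicylic acid-dependent death, at -1.28 (SE 0.29, adjusted p = 0.00171), and without replicate 2 or 3 of Col-0 ozone the lower count was 2. BAG6, a co-chaperone linked to cell death, had 206, 228 and 398 CPM in Cvi-0 ozone and 10.5, 13.5 and 21 CPM in Col-0 ozone libraries (log2 fold change 4.21, SE 0.46, adjusted p = 1.2e-06). The NAC factors NAC019 (3.51, SE 0.39, adjusted p = 1.5e-06) and RD26 (2.87, SE 0.33, adjusted p = 2.6e-06), which act in senescence and abscisic acid responses, were higher. BI-1 (1.56, SE 0.19, adjusted p = 3.2e-06) and BAP1 (2.01, SE 0.30, adjusted p = 3.9e-05), which restrain cell death, were higher too. ACD6, BI-1 and BAP1 were named after their values were seen.

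**Figure D3:**
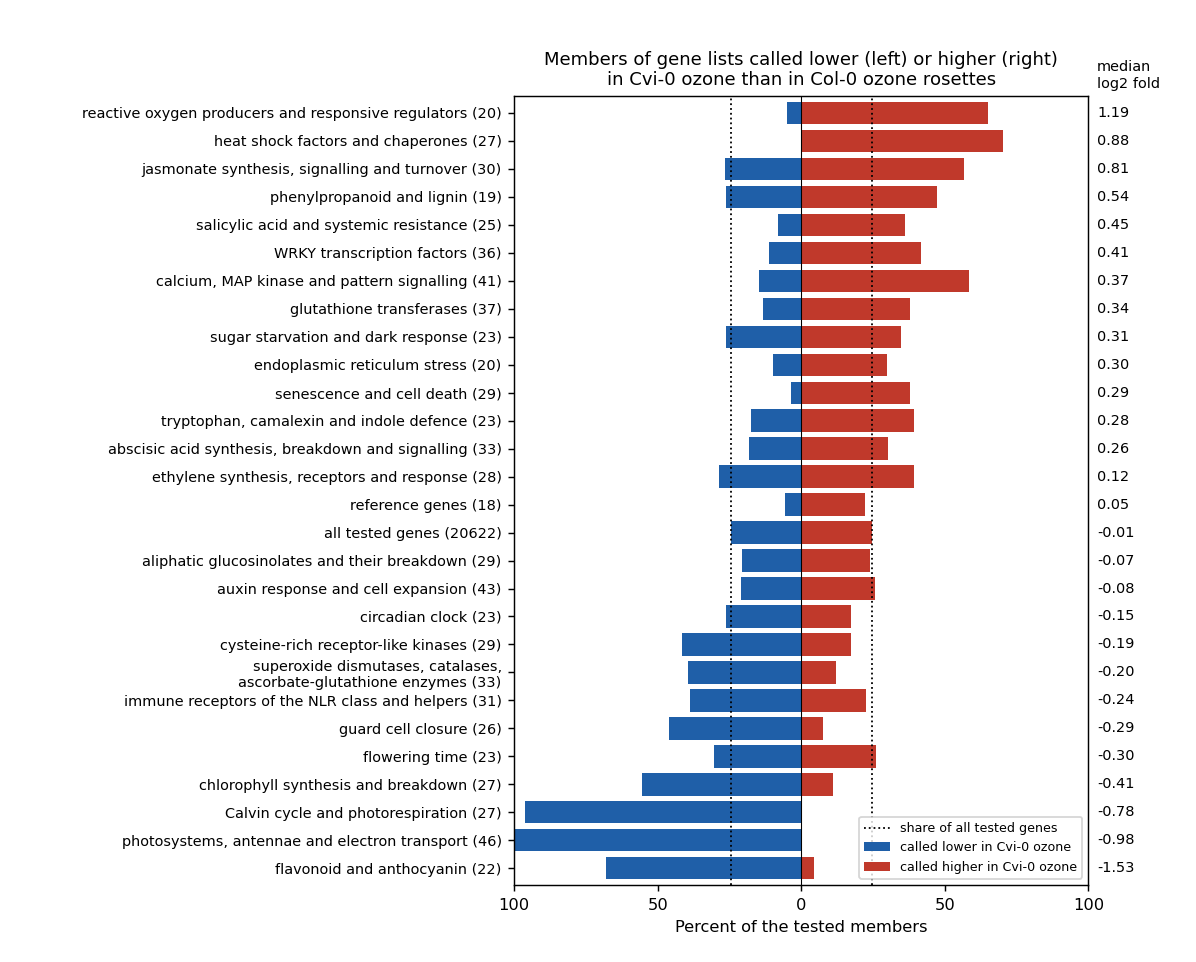
Percent of the tested members of each gene list called lower (left) and higher (right) in Cvi-0 ozone than in Col-0 ozone rosettes, for lists of 15 or more tested genes, with the number tested in parentheses and the median log2 fold change at the right edge. Dotted lines mark the shares of all tested genes, 24.4% lower and 24.6% higher; photosystem genes were lower at 100% of members and heat shock genes higher at 70.4%.

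Photosynthesis genes were lower in Cvi-0 rosettes after ozone almost without exception. All 46 tested nuclear genes of photosystems, antennae and electron transport were called lower (24.4% of all genes), 19 of them at least 2-fold, and their median was -0.98, between -2.10 and -0.45. In controls the median was -0.20 and 2 were lower, and the interaction was called more negative after ozone for 35 of the 46 (10.3% of all genes). In these bulk samples, fewer cells of a type and less RNA per cell cannot be told apart. LHCB4.2, a minor antenna protein that overlaps AT3G08943, had 330, 415 and 288 CPM in Cvi-0 ozone and 1423, 1987 and 1033 CPM in Col-0 ozone libraries (log2 fold change -2.10, SE 0.24, adjusted p = 2.0e-06), and it was also lower in controls (-1.27, adjusted p = 5.9e-04). ATPD, the delta subunit of the chloroplast ATP synthase, had 312, 386 and 273 CPM, against 845, 1203 and 749 CPM (-1.53, SE 0.18, adjusted p = 2.3e-06). PSBY, a small subunit of photosystem II, had 356, 372 and 368 CPM, against 779, 1037 and 701 CPM (-1.20, SE 0.14, adjusted p = 2.4e-06). For these 3 genes each Cvi-0 library lay below each Col-0 library, and Col-0 ozone replicate 2 was the highest.

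The Calvin cycle and photorespiration showed the same picture, with 26 of 27 members lower (24.4% of all genes) and a median of -0.78, against 0.00 in controls. The interaction was called more negative after ozone for 23 members (10.3% of all genes). The uncalled member was TPI, triose phosphate isomerase (-0.17, SE 0.09, adjusted p = 0.12). RCA, the activase of Rubisco, had 3249, 3658 and 3419 CPM in Cvi-0 ozone and 7206, 9363 and 5972 CPM in Col-0 ozone libraries (-1.13, SE 0.15, adjusted p = 1.5e-05), and RBCS1A, a small subunit of Rubisco, had 6623, 8721 and 7329 CPM, against 14318, 15484 and 13346 CPM. CP12-2, a regulator of the cycle, was lower by 1.91 on the log2 scale (adjusted p = 1.3e-05) and at 0.02 (adjusted p = 0.964) in controls. Named by rule, HPR (-1.25), GAPA-2 (-1.21) and PGK1 (-1.04), a photorespiratory reductase, a glyceraldehyde phosphate dehydrogenase and a phosphoglycerate kinase, were each called. TPI, RCA, RBCS1A and CP12-2 were named after their values were seen. The 10 most abundant genes of a library took 4.82% to 5.03% of the counts in Cvi-0 ozone and 6.03% to 7.57% in Col-0 ozone libraries, and the part of this shift in the values of other genes was not tested.

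**Figure D4:**
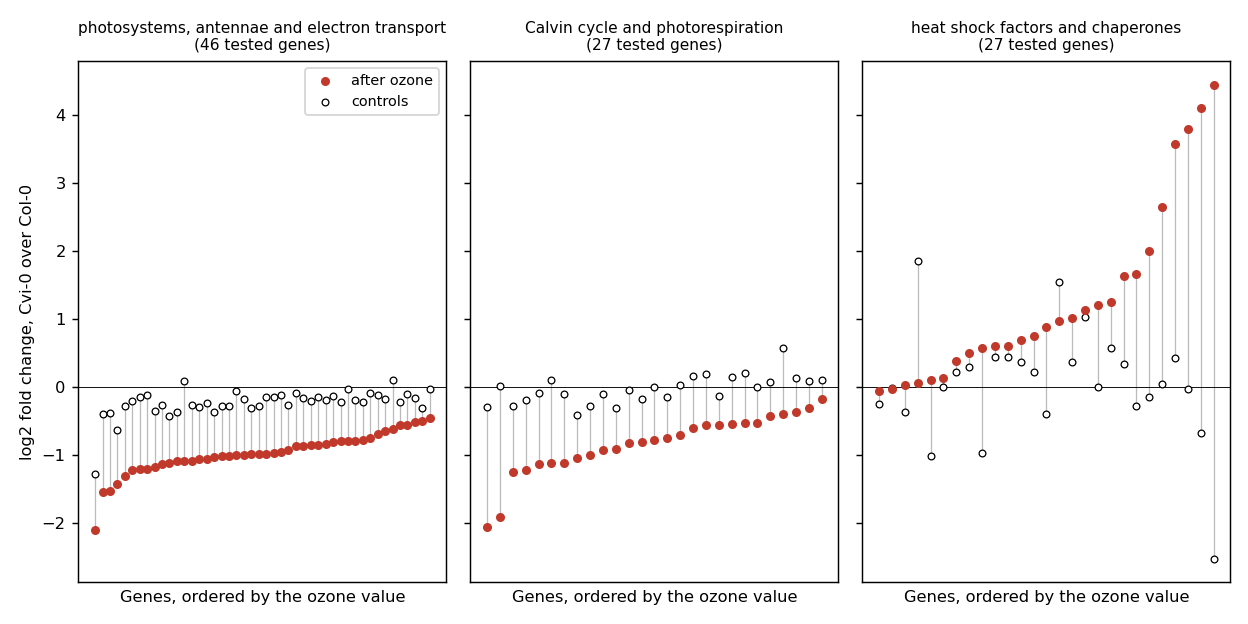
Log2 fold change of Cvi-0 over Col-0 for each tested member of 3 gene lists, after ozone (red) and in controls (open), ordered by the ozone value and joined by a line. Photosystem and Calvin cycle members lie below 0 after ozone, with medians of -0.98 and -0.78, against -0.20 and 0.00 in controls, where LHCB4.2 is at -1.27, while heat shock members lie mostly above 0 after ozone, with a median of 0.88.

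Of 27 chlorophyll genes 15 were lower and 3 higher (24.4% and 24.6% of all genes), with a median of -0.41. The higher count was 1 without replicate 1 or 3 of Cvi-0 ozone or replicate 2 of Col-0 ozone. GUN4 (-1.50, SE 0.21, adjusted p = 1.7e-05), which promotes magnesium insertion, and CAO (-1.30, SE 0.16, adjusted p = 6.4e-06), which makes chlorophyll b, were lower. HEMA2, a paralogue of the enzyme that starts tetrapyrrole synthesis, went the other way with 675, 726 and 698 CPM in Cvi-0 ozone and 152, 156 and 227 CPM in Col-0 ozone libraries (1.97, SE 0.21, adjusted p = 9.7e-07).

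Enzymes that remove reactive oxygen were lower more often than higher, with 13 of 33 lower and 4 higher (24.4% and 24.6% of all genes). Their median was -0.20. The higher count was 2 without replicate 2 of either accession. CAT2, the leaf catalase of photorespiration, had 339, 372 and 377 CPM in Cvi-0 ozone and 600, 1320 and 658 CPM in Col-0 ozone libraries (-1.25, SE 0.27, adjusted p = 0.0011). GPX7 (-4.56, SE 0.30, adjusted p = 2.9e-09), a glutathione peroxidase-like gene, was lower in controls as well (-3.48, adjusted p = 2.3e-08), and the thylakoid ascorbate peroxidase TAPX was lower (-0.74, adjusted p = 3.4e-05). GPX2, which overlaps AT2G31560, had 454, 406 and 383 CPM in Cvi-0 ozone, against 134, 121 and 145 CPM in Col-0 ozone (1.64, SE 0.10, adjusted p = 2.0e-09). GSH2, the last enzyme of glutathione synthesis, was lower after ozone (-1.04, SE 0.18, adjusted p = 1.4e-04) and higher in controls (0.91, adjusted p = 0.0011). Cytosolic APX1 (-0.27, SE 0.20, adjusted p = 0.282) and the superoxide dismutase CSD1 (0.36, SE 0.46, adjusted p = 0.547), which overlaps AT1G08840, were not called. CAT2, GSH2, APX1 and CSD1 were named after their values were seen.

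Glutathione transferases, which conjugate glutathione to toxic products, were higher at 14 and lower at 5 of 37 members (24.6% and 24.4% of all genes). Their median was 0.34. GSTU12 had 124, 105 and 109 CPM in Cvi-0 ozone and 5.6, 5.53 and 7.38 CPM in Col-0 ozone libraries (log2 fold change 4.2, SE 0.29, adjusted p = 4.7e-09). Next to it on chromosome 1, GSTU11 had 86, 65.2 and 74.2 CPM, against 8.2, 6.43 and 15.2 CPM (2.93, SE 0.37, adjusted p = 5.6e-06). GSTU10 was higher by 2.80 (SE 0.29, adjusted p = 6.9e-07). GSTU24, named with GSTU11 after its values were seen, had 363, 380 and 309 CPM in Cvi-0 ozone, against 73.2, 26.6 and 50.7 CPM in Col-0 ozone. GSTU1 was lower at 0.684, 1.38 and 1.31 CPM, against 18.5, 9.34 and 18.6 CPM (-3.78, SE 0.31, adjusted p = 4.0e-08). In controls GSTU10 was higher too (1.47, adjusted p = 0.00176), GSTU1 was lower too (-3.32, adjusted p = 6.2e-04) and GSTU12 was not called (0.88, adjusted p = 0.696).

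Flavonoid and anthocyanin genes had the lowest median among the lists of 15 or more tested genes, -1.53 after ozone and -0.51 in controls. Of 22 tested, 15 were lower and 1 higher after ozone (24.4% and 24.6% of all genes). DFR, the reductase that commits flavonoids to anthocyanins, had 1.08, 3.31 and 1.72 CPM in Cvi-0 ozone and 17.3, 41.8 and 32.7 CPM in Col-0 ozone libraries (log2 fold change -3.91, SE 0.48, adjusted p = 5.2e-06), and -4.53 in controls (adjusted p = 1.5e-06). TT8, the bHLH factor that activates DFR, had 0, 0.181 and 0.276 CPM, against 3.04, 4.5 and 3.2 CPM (-4.58, SE 0.49, adjusted p = 1.1e-06), with -3.30 in controls (adjusted p = 1.4e-05). The anthocyanin malonyltransferase 5MAT had 2 counts in the 3 Cvi-0 ozone libraries and 296 in the 3 Col-0 ozone libraries. The ratio of Col-0 to Cvi-0 was 114 (exact 95% interval 31.3 to 945, for counting error only). These late pathway genes were thus lower in Cvi-0 with or without ozone, and no interaction was called for DFR, TT8 or 5MAT (adjusted p = 0.553, 0.259 and 0.618). TT8 and 5MAT passed the filter on low counts through Col-0 and Col-S groups alone, so their differences are descriptions. TT4, chalcone synthase at the entry, which overlaps AT5G13940, differed after ozone (-1.58, SE 0.26, adjusted p = 1.0e-04) and had an interaction call (adjusted p = 0.0274). The higher member was the MYB factor MYB113 (2.75, SE 0.51, adjusted p = 3.1e-04), and it was higher in controls too (3.02, adjusted p = 0.0224). TT4 and MYB113 were named after their values were seen.

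Phenylpropanoid and lignin genes were higher at 9 and lower at 5 of 19 members (24.6% and 24.4% of all genes), with a median of 0.54. Their lower share was near that of all genes. The lower count was 3 without replicate 1 or 3 of Cvi-0 ozone or replicate 2 of Col-0 ozone. C4H, the entry hydroxylase (1.03, SE 0.27, adjusted p = 0.00468), and CAD8, an alcohol dehydrogenase induced by elicitors (2.22, SE 0.44, adjusted p = 5.4e-04), were higher and named after their values were seen. PAL3 (-1.42, SE 0.23, adjusted p = 7.0e-05), CAD4 (-0.86, SE 0.13, adjusted p = 4.9e-05) and CCR1 (-0.84, SE 0.13, adjusted p = 4.1e-05), which overlaps AT1G15960, were lower.

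In tryptophan, camalexin and indole defence, 9 of 23 members were higher and 4 lower (24.6% and 24.4% of all genes), with a median of 0.28. TSB2, a subunit of tryptophan synthase, had 64.8, 76.3 and 79.7 CPM in Cvi-0 ozone and 12.5, 17.3 and 20.3 CPM in Col-0 ozone libraries (2.14, SE 0.20, adjusted p = 1.9e-07). CYP79B2, which feeds camalexin and indole glucosinolates and was named after its values were seen, was higher after ozone (1.68, SE 0.26, adjusted p = 4.3e-05) and lower in controls (-2.03, adjusted p = 2.0e-05). MYB34 (-2.76, SE 0.36, adjusted p = 7.7e-06) and MYB122 (-2.43, SE 0.31, adjusted p = 1.4e-05), activators of indole glucosinolate synthesis, were lower. In controls TSB2 was higher (1.11, adjusted p = 3.7e-04), MYB34 was lower (-2.61, adjusted p = 2.8e-06) and MYB122 was not called (-0.54, adjusted p = 0.815).

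Aliphatic glucosinolate genes were higher in Cvi-0 controls but not after ozone. In controls 19 of 29 were higher and 2 lower, with a median of 0.69 (12.2% and 11.8% of all genes). After ozone 7 were higher and 6 lower, near the shares of all genes (24.6% and 24.4%), with a median of -0.07. The interaction was called more negative for 15 members (10.3% of all genes). The activator MYB28, named after its values were seen, had a log2 fold change of 0.69 (adjusted p = 2.1e-04) in controls and -0.84 (SE 0.12, adjusted p = 1.6e-05) after ozone, at 23.1, 29 and 25.3 CPM in Cvi-0 ozone and 47.4, 50.6 and 40.5 CPM in Col-0 ozone libraries. Genes that decide the fate of glucosinolates on tissue damage differed by accession. ESM1, which favours isothiocyanates, had 3.65, 3.13 and 3.1 CPM in Cvi-0 ozone, against 338, 457 and 327 CPM in Col-0 ozone (-6.82, SE 0.18, adjusted p = 5.5e-14). ESP, which diverts the products to nitriles, had 926, 1498 and 728 CPM in Cvi-0 ozone, against 4.76, 12.4 and 6.24 CPM in Col-0 ozone (7.06, SE 0.35, adjusted p = 8.5e-11). Both stood the same way in controls, ESM1 at -5.51 (adjusted p = 4.3e-13) and ESP at 6.77 (adjusted p = 1.3e-10).

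**Figure D5:**
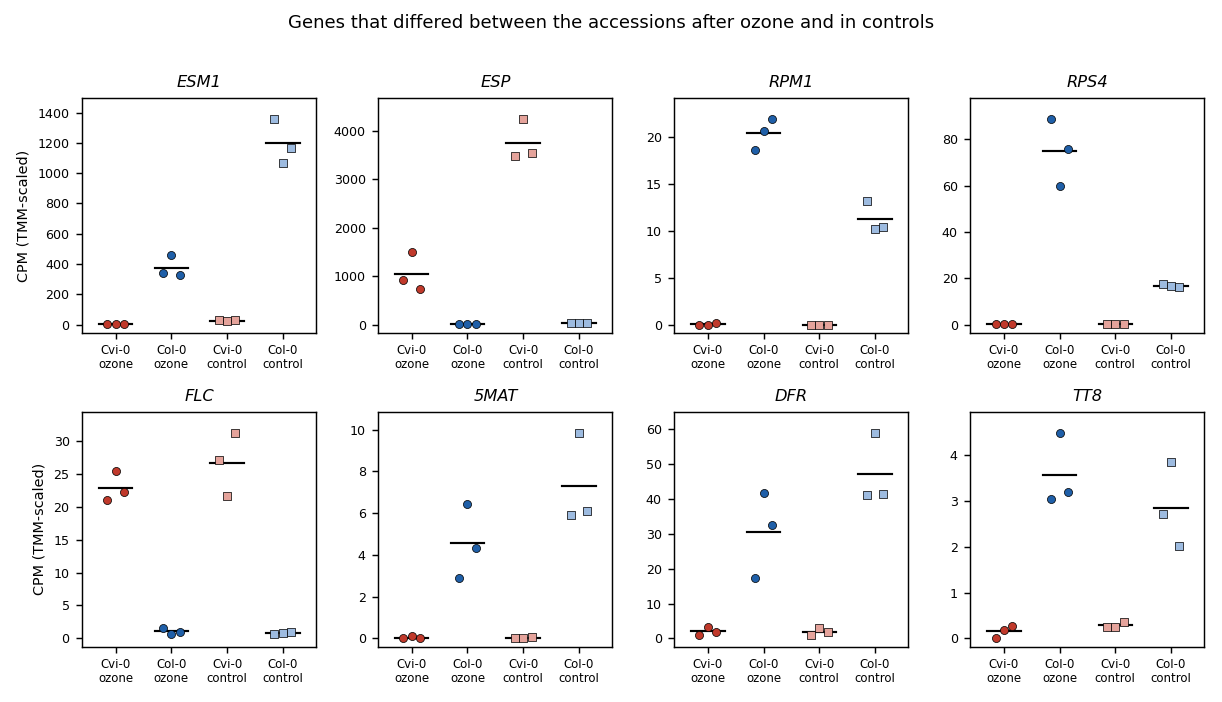
TMM-scaled CPM of 8 genes in each library of Cvi-0 ozone, Col-0 ozone, Cvi-0 control and Col-0 control rosettes, with a bar at each mean. ESP and FLC were higher, and ESM1, RPM1, RPS4, 5MAT, DFR and TT8 lower, in Cvi-0 than in Col-0 both after ozone and in controls.

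Immune receptors of the NLR class, which recognise pathogen effectors inside the cell, were the group with the most extreme low values in Cvi-0. Of 31 tested, 12 were lower and 7 higher after ozone (24.4% and 24.6% of all genes), with a median of -0.24. The higher share was near that of all genes, and 11 of the lower ones were at least 2-fold lower (8.52% of all genes). In controls 16 were lower and 2 higher (11.8% and 12.2% of all genes). RPS4 had 0.171, 0.361 and 0.345 CPM in Cvi-0 ozone and 88.9, 59.7 and 75.9 CPM in Col-0 ozone libraries (log2 fold change -7.99). Its neighbour and partner RRS1 had 0.285, 0.361 and 0.138 CPM, against 48.2, 33.9 and 37.4 CPM (-7.19). CHS3, also called DAR4, had 0.171, 0.421 and 0.138 CPM, against 70.6, 58.3 and 57.6 CPM (-7.94). RPS4, RRS1 and CHS3 passed the filter through Col-0 and Col-S groups alone, so their differences are descriptions. RPM1, named after its values were seen, had 2 counts in the 3 Cvi-0 ozone libraries and 1286 in the 3 Col-0 ozone libraries. The ratio of Col-0 to Cvi-0 was 495 (exact 95% interval 137 to 4093, for counting error only).

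Among other members, HR4 and SNC1 were lower in Cvi-0 in both conditions, while WRR4 changed its order. WRR4 had 738, 737 and 712 CPM in Cvi-0 ozone and 129, 112 and 107 CPM in Col-0 ozone libraries (2.65, SE 0.17, adjusted p = 2.4e-09), but was lower in Cvi-0 controls (-1.44, adjusted p = 6.9e-06). HR4, of the RPW8 family, had 69.3, 74.7 and 56.9 CPM in Cvi-0 ozone, against 1419, 872 and 1384 CPM in Col-0 ozone (-4.19, SE 0.47, adjusted p = 1.6e-06), and its control difference was larger still at -8.59 (adjusted p = 5.6e-08), with an interaction call (adjusted p = 0.00187). SNC1 was lower by a similar factor after ozone (-2.69, SE 0.13, adjusted p = 6.2e-11) and in controls (-2.23, adjusted p = 7.0e-10). WRR4, HR4 and SNC1 were named after their values were seen. Reads were assigned to the Col-0 genome, and the part of sequence differences of Cvi-0 in these values was not tested.

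Growth, clock and sugar genes were less one-sided, and most of their shares were near those of all tested genes, 24.6% higher and 24.4% lower. Of 43 auxin and cell expansion genes 11 were higher and 9 lower (25.6% and 20.9%), and the median was -0.08. The lower count was 5 without Col-0 ozone replicate 2. The auxin repressors IAA19 (2.74, SE 0.31, adjusted p = 1.8e-06), IAA1 (2.73, SE 0.39, adjusted p = 2.5e-05) and IAA2 (1.44, SE 0.21, adjusted p = 3.1e-05) were higher, IAA19 at 19, 19 and 33.8 CPM in Cvi-0 ozone and 3.58, 3.73 and 3.42 CPM in Col-0 ozone libraries. Of 23 clock genes 4 were higher and 6 lower, the lower count being 3 without replicate 2 or 3 of Cvi-0 ozone or replicate 1 of Col-0 ozone. BOA, a clock transcription factor of the evening, had 3.19, 3.31 and 4.41 CPM, against 0.0982, 0.0819 and 0.217 CPM (4.76, SE 0.58, adjusted p = 4.7e-06), and RVE8, a morning activator, was lower (-1.12, SE 0.22, adjusted p = 5.2e-04). The Col-0 ozone values of BOA were near the floor of 3 counts. BOA passed the filter through the Cvi-0 and Col-S ozone groups alone, so its difference is a description. Among 23 flowering time genes 6 were higher and 7 lower (26.1% and 30.4%). FLC, the repressor that delays flowering until winter has passed, had 21, 25.4 and 22.2 CPM in Cvi-0 ozone and 1.52, 0.737 and 1.03 CPM in Col-0 ozone (4.39, SE 0.24, adjusted p = 2.3e-10), with 4.95 in controls (adjusted p = 8.9e-11). The phytochrome PHYB was lower after ozone (-1.09, SE 0.12, adjusted p = 1.1e-06) and not called in controls (-0.15, adjusted p = 0.365), with an interaction call (adjusted p = 7.6e-04).

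Of 23 sugar starvation and dark response genes 8 were higher and 6 lower (34.8% and 26.1%, against 24.6% and 24.4% of all genes), with a median of 0.31. DIN9, a phosphomannose isomerase induced in darkness, had 68, 74 and 97.6 CPM in Cvi-0 ozone and 7.17, 9.99 and 10.4 CPM in Col-0 ozone libraries (3.12, SE 0.26, adjusted p = 7.4e-08), and DIN11 was lower (-2.32, SE 0.22, adjusted p = 2.2e-07). In controls DIN9 was not called (0.52, adjusted p = 0.195). DIN11 was lower there too (-2.08, adjusted p = 0.0375), but no control library exceeded 0.573 CPM. The sucrose exporters SWEET11 (-2.14, SE 0.39, adjusted p = 2.3e-04) and SWEET12 (-2.75, SE 0.81, adjusted p = 0.00959), named after their values were seen, were lower. Of 18 genes often used as references, 4 were higher and 1 lower (22.2% and 5.56%), so that the higher share was near that of all genes. The higher count was 1 without replicate 1 of Cvi-0 ozone or replicate 2 of Col-0 ozone and 2 without Cvi-0 ozone replicate 3, and the lower count 2 without Col-0 ozone replicate 1. ACT2, named after its values were seen, had 612, 578 and 604 CPM in Cvi-0 ozone and 566, 491 and 540 CPM in Col-0 ozone (0.17, SE 0.10, adjusted p = 0.188). ACT8 was higher (0.64, SE 0.13, adjusted p = 6.9e-04), as was TUB2 (0.28, SE 0.09, adjusted p = 0.0188), and UBQ11 was lower (-0.75, SE 0.13, adjusted p = 1.0e-04). In controls UBQ11 was lower by more (-1.41, adjusted p = 2.2e-07), and ACT8 and TUB2 were not called (adjusted p = 0.783 and 0.245). TUB2 was not called without Cvi-0 ozone replicate 1 (adjusted p = 0.0611), Cvi-0 ozone replicate 3 (adjusted p = 0.0879) or Col-0 ozone replicate 2 (adjusted p = 0.085), nor with only the libraries compared in the fit (adjusted p = 0.0774) or no filter on low counts (adjusted p = 0.0519).

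Of the 6 tested root markers, 1 was higher and none lower (24.6% and 24.4% of all genes), and the lower count was 1 without Col-0 ozone replicate 3. The higher one was MYB36, a factor of root endodermis, with 107 counts in the 3 Cvi-0 ozone libraries and 1 in the 3 Col-0 ozone libraries. The ratio was 139 (exact 95% interval 24.4 to 5539, for counting error only). In controls MYB36 was at 0 to 0.102 CPM in Cvi-0 and 0 to 0.164 CPM in Col-0 and was not called (-0.70, adjusted p = 0.743). Its interaction was called (7.35, adjusted p = 0.00804). MYB36 passed the filter on low counts through the Cvi-0 ozone group alone, so its ozone difference and interaction are descriptions. Of the 3 tested markers of flowers, pollen and seeds, 2 were lower, or 1 without Cvi-0 ozone replicate 1 or without replicate 2 of either accession. AG, a floral organ gene, had 3 counts in Cvi-0 ozone and 34 in Col-0 ozone, a ratio of Col-0 to Cvi-0 of 8.73 (exact 95% interval 2.74 to 44.4, for counting error only). AG was lower in Cvi-0 controls too (-3.41, adjusted p = 5.3e-05). FUS3, a seed gene, was at or under 0.345 CPM in Cvi-0 ozone and at or under 0.983 CPM in Col-0 ozone (-2.19, SE 0.67, adjusted p = 0.0124), and was not called without Cvi-0 ozone replicate 1 (adjusted p = 0.0504), Cvi-0 ozone replicate 2 (adjusted p = 0.0534) or Col-0 ozone replicate 2 (adjusted p = 0.0637). FUS3 was lower in Cvi-0 controls as well (-4.47, adjusted p = 5.1e-04). AG and FUS3 passed the filter on low counts through Col-0 and Col-S groups alone, so their differences are descriptions.

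Some genes were called in opposite directions in controls and after ozone. Of 4939 genes called in controls (24% of those tested), 3025 (61.2%) were called the same way after ozone and 328 (6.64%) the other way. By a rule on the size of the interaction, the 4 largest shifts upward were AT5G19880, AT3G46080, RLP43 and ORA47. AT5G19880, a class III peroxidase, had 112, 132 and 93.4 CPM in Cvi-0 ozone and 2.85, 4.3 and 4.99 CPM in Col-0 ozone libraries (log2 fold change 4.8, SE 0.35, adjusted p = 5.3e-08), with -4.09 in controls (adjusted p = 0.0153), where no library exceeded 1.23 CPM. AT3G46080, a zinc finger gene next to ZAT7 on chromosome 3, had 404, 367 and 425 CPM, against 16.8, 13.2 and 20.7 CPM (4.56, SE 0.43, adjusted p = 2.8e-07), with -3.40 in controls (adjusted p = 0.0217). ORA47, an ERF that activates jasmonate synthesis genes, had 94.3, 91.1 and 81.7 CPM, against 1.87, 1.06 and 5.32 CPM (5.06, SE 0.62, adjusted p = 4.8e-06), with -2.07 in controls (adjusted p = 0.0395). These genes were far lower in all controls than in Cvi-0 ozone libraries, and their Cvi-0 and Col-0 control values overlapped. AT3G46080 was at 0.0364 to 0.204 CPM in Cvi-0 controls and 0.177 to 2.25 CPM in Col-0 controls, and ORA47 at 0.8 to 1.83 CPM and 1.02 to 8.48 CPM. RLP43, a receptor-like protein that overlaps AT3G28880, had a smaller ozone difference (1.54, SE 0.38, adjusted p = 0.00308) and a large control difference (-5.71, adjusted p = 2.8e-05). It was at 0 to 0.153 CPM in Cvi-0 controls and 2.94 to 7.12 CPM in Col-0 controls. A floor of 3 counts was 0.115 to 0.195 CPM in Cvi-0 controls and 0.127 to 0.181 CPM in Col-0 controls. With control values near that floor or overlapping, the sizes of these control differences and interactions are not firm.

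The 4 largest shifts downward were AT3G09405, RTFL5, AT3G49970 and DES1. AT3G09405, a pectin acetylesterase that overlaps AT3G09410, had 11.5, 7.88 and 7.99 CPM in Cvi-0 ozone and 92.8, 71.1 and 99 CPM in Col-0 ozone libraries (-3.26, SE 0.19, adjusted p = 5.5e-10), with 2.16 in controls (adjusted p = 8.4e-07). Its Cvi-0 control libraries, at 7.57 to 9.36 CPM, were close to its Cvi-0 ozone libraries, while Col-0 controls lay at 1.6 to 2 CPM. DES1, a cysteine desulfhydrase that releases hydrogen sulfide, had 1.2, 1.99 and 0.827 CPM in Cvi-0 ozone, against 6.14, 13.1 and 4.61 CPM in Col-0 ozone (-2.57, SE 0.45, adjusted p = 1.6e-04), and 1.29 in controls (adjusted p = 0.0082). RTFL5, a small ROTUNDIFOLIA-like peptide, was at -1.55 (SE 0.36, adjusted p = 0.00176) after ozone and 3.06 (adjusted p = 0.0117) in controls. Its controls were at 0.407 to 0.8 CPM in Cvi-0 and 0.0516 to 0.0818 CPM in Col-0, the latter under the floor of 3 counts. AT3G49970, of the phototropic NPH3 family, was at -0.88 (SE 0.31, adjusted p = 0.0253) after ozone and 3.40 (adjusted p = 1.0e-07) in controls. Its ozone call was lost without Cvi-0 ozone replicate 2 (adjusted p = 0.0551), Cvi-0 ozone replicate 3 (adjusted p = 0.0867) or Col-0 ozone replicate 1 (adjusted p = 0.103).

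The largest differences of all after ozone were in genes with few or no counts in 1 accession. Of the tested genes, 102 had no count in all 6 Cvi-0 libraries and 120 had none in all 6 Col-0 libraries. Such genes passed the filter on low counts through other groups alone, so that most differences were set by the filter. After ozone 99 of the 102 and 119 of the 120 were called, and these numbers are descriptions. The 8 highest by rule were AT5G15360, AT4G16215, AT2G06490, AT5G18880, AT3G43833, AT2G43960, AT1G67105 and AT2G13750, most of them annotated as uncharacterized, as pseudogenes or as non-coding RNA. AT5G15360 had 33.6, 30.9 and 38.5 CPM in Cvi-0 ozone and no count in Col-0 ozone libraries, at least 719-fold higher against a floor of 3 counts over the group. AT1G67105, a non-coding RNA, had 260, 292 and 206 CPM, against 0.147, 0.0819 and 0.0542 CPM (log2 fold change 11.28, and 10.47 in controls). It had at most 0.53 CPM in any Col-0 or Col-S library and so passed the filter through the Cvi-0 groups alone. Its difference is a description. AT2G43960, with a SWAP domain, had 65.8, 63.3 and 58.4 CPM in Cvi-0 ozone and 1 count over the Col-0 ozone libraries. AT2G43960 had 60, 56.7 and 49.6 CPM in Col-S ozone libraries, where the other 7 had at most 0.681 CPM.

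The 8 lowest were AT4G16870, AT5G49440, AT2G11240, AT3G44430, AT5G24735, AT2G13970, AT3G43955 and AT2G23330. AT2G11240, a pseudogene, had 419, 273 and 336 CPM in Col-0 ozone libraries and 3 counts over the Cvi-0 ozone libraries. The ratio of Col-0 to Cvi-0 was 5490 (exact 95% interval 1878 to 26623, for counting error only). The other 7 had no count in Cvi-0 ozone and were at least 284-fold to 1022-fold lower there. An interaction was called for AT2G23330 (adjusted p = 0.015), which had 0, 0.109 and 0.102 CPM in Cvi-0 controls and 4.47 to 4.91 CPM in Col-0 controls, against 13.6 to 23.1 CPM in Col-0 ozone. All 8 were detected in each Col-S ozone library. They passed the filter on low counts through Col-0 and Col-S groups alone, so their differences and the interaction of AT2G23330 are descriptions.

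The promoters of genes that were higher in Cvi-0 after ozone and differed little in controls were read for short motifs. Sequences are the 250 bases before the start that RefSeq annotates in TAIR10.1, available for 20601 of the 20622 tested genes, and 11 motifs were searched on both strands. They are Col-0 sequences, and the promoters of Cvi-0, which may differ, were not read. The letters CGCGT, the core of the sites bound by the calmodulin-binding CAMTA factors, were in 117 of 663 promoters of genes that were at least 2-fold higher after ozone, had an interaction call and differed by under 0.5 in controls. All tested promoters held it at 7.50%, the 381 of genes lower by the same conditions at 4.2%, and the 1085 of genes at least 2-fold higher in Cvi-0 controls at 6.27%. The abscisic acid element core ACGTGT was in 16.3% of the 663, against 11% of all, the G-box CACGTG, which can share letters with it, in 10.9% against 7.26%, the heat shock element core GAANNTTC in 12.8% against 9.56% and the WRKY core TTGAC in 53.1% against 45%. The longer WRKY forms TTGACC (17.2% against 12.3%) and TTGACT (24.1% against 18.9%) contain TTGAC, and the core TGACG (21.7% against 19.3%) can share letters with it. The light-related GATAAG (11.8% against 12.3%), the ERF site GCCGCC (1.81% against 2.01%) and the evening element AAATATCT (6.33% against 4.91%) completed the search. These shares describe letters and carry no test. The 4 promoters below were chosen after the search because they hold the CGCGT letters, shown in capitals for either strand, and because their genes were described above. ZAT7 and PROPEP1 are not among the 663, since their control differences were -1.49 and 0.64. The promoters of LYK2, PP2-B11 and DREB2A hold no such letters. Each is written from the 5′ end on the strand of its gene.
MAPKKK18, chr1:1469291-1469540, plus strand: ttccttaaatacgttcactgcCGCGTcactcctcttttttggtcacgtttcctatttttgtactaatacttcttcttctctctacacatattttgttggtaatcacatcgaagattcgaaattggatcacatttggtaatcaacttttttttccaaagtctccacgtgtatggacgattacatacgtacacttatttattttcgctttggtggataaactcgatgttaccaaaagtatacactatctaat
ZAT7, chr3:16926884-16927133, minus strand: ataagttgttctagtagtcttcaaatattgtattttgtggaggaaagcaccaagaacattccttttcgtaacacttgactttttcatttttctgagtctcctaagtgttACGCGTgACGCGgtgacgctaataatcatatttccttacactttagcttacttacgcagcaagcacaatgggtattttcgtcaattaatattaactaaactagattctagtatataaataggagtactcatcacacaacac
PROPEP1, chr5:25936828-25937077, plus strand: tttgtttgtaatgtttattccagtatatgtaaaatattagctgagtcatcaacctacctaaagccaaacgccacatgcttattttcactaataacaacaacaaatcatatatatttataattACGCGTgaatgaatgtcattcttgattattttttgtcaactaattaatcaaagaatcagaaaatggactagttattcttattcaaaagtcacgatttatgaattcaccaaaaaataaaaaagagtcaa
bZIP60, chr1:16137464-16137713, minus strand: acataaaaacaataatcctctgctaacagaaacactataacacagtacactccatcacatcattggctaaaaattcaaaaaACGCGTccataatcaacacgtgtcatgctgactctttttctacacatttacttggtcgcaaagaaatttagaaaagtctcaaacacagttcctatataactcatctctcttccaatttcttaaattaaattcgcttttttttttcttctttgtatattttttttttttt
MAPKKK18 holds the core at 1 place, ZAT7 at 3, PROPEP1 at 2 and bZIP60 at 2, and where the letters read ACGCGT the core is on both strands. The promoter of AT3G46080, the neighbour of ZAT7, also holds it at 3 places.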

How the data were processed

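RNA-seq libraries of whole rosettes from 3 genotypes, with and without ozone, were used as deposited read counts per gene. The authors' counts were made with FastQC, TopHat2, SAMtools and HTSeq on TAIR10, per the submitters' processing notes, while those sources give neither counting mode nor strand setting. TAIR10 is the Col-0 genome. The deposited counts were fitted here with edgeR 4.0.16 in R 4.3.3, with TMM scaling, filterByExpr and a mean per group over all 18 libraries (12 residual degrees of freedom). Contrasts were Cvi-0 over Col-0 after ozone, the same in controls, and their difference, tested by quasi-likelihood with Benjamini-Hochberg adjustment over 20622 genes. Every adjusted p comes from this model across all genes, refitted where a library is said to be left out or a setting changed, and an SE is the absolute log2 fold change over the root of its F value. Exact intervals come from counts summed over the 3 libraries of a group and cover counting error only. Ozone replicates varied at 10.3 to 49.1 times the variance of counting error. A gene near the floor in 1 accession passed the filter through other groups alone, and its adjusted p is then a description. In simulated data for Cvi-0 ozone against Col-0 ozone over 20265 genes, 66% of 100 genes changed 2-fold and 92.8% of 97 changed 4-fold were recovered, and 2.5% of calls were false.

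Named were the 8 highest and 8 lowest called genes without overlap of replicates, the 6 highest and 6 lowest with an interaction call and a control difference under 0.5, the 4 largest reversals each way, up to 3 members per list with the smallest p, and MPK12, the first 3 groups being limited to an average log2 CPM of 1 or more. The members and the 29 gene lists were chosen with earlier results of these data known. Of 854 list entries 842 matched a gene. Names came from RefSeq, which holds 31912 of the 32678 codes. DESeq2 1.42.0, other scaling and filters, fewer libraries, a replicate block and leaving out each library were tried as alternatives.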

Additional observations from a re-analysis of the deposited data

Results flagged for a closer look

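The difference between Cvi-0 and Col-0 was itself different after ozone and in controls for many genes, by edgeR's interaction test. It was more positive after ozone for 2288 genes and more negative for 2115 genes. For genes with a control difference under 0.5 on the log2 scale, the interaction was 6.11 for MAPKKK18, 6.18 for LYK2, 5.57 for PP2-B11, 5.16 for DREB2A, 4.40 for AT1G74400 and 4.59 for AT1G06980. In the other direction it was -3.52 for NAC048, -3.58 for CYP706A6, -3.46 for AT1G73325, -3.05 for FRO7, -2.93 for SQP1 and -2.66 for AT2G03980, whose control difference was itself called. For genes whose accessions changed order it was 8.88 for AT5G19880, 7.96 for AT3G46080, 7.25 for RLP43 and 7.13 for ORA47, and -5.42 for AT3G09405, -4.61 for RTFL5, -4.29 for AT3G49970 and -3.86 for DES1. These genes were named for the size of these values, which are therefore descriptions.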

How the results depend on the processing

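Of the counts over all genes, 1 moved by more than 1.5 times under any alternative run: with the replicate number as a block in the fit, 3181 genes were called more negative after ozone than in controls, against 2115 without it. The labels do not say what a number marks, and the libraries share only a number. Same-numbered Cvi-0 and Col-0 ozone libraries correlated at 0.20, 0.14 and 0.08 in their deviations from the group means, each library best with its own number, and different numbers at -0.14 to -0.02. Same-numbered Cvi-0 and Col-0 controls correlated at 0.29, 0.10 and 0.18. Over the 18 same-numbered pairs of these 4 groups all were positive, at 0.04 to 0.29, but not every one was over 0.1. Not every library was best with its own number. Col-0 ozone replicate 3 correlated at 0.17 with Col-0 control replicate 2 and 0.08 with replicate 3. Cvi-0 ozone replicate 3 did so at 0.06 with Cvi-0 control replicate 2 and 0.04 with replicate 3. Deviations within a group cancel out, so different numbers tend to be negative where same numbers are positive. The block called 5551 genes higher and 5676 lower. Leaving out 1 library gave 4395 to 4788 higher and 4306 to 4927 lower genes, which held 82.6% to 90.6% of the 10099 calls. DESeq2 gave 5441 higher and 4709 lower. Among 236 named genes, 3035 of 3053 recomputed ozone differences kept direction and side of the threshold, 12 lost the call, 6 gained it and none reversed. For 20 interactions 253 of 260 did and 7 lost the call. With the block, 10 clock and 11 flowering time genes were lower, against 6 and 7. At these depths genes near the floor of 3 counts give no firm fold.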
